A study of Mus musculus with 16 samples.

Results

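Axin1 and 9 other genes of the beta-catenin destruction complex were followed across liver and liver tumours of mice in which Axin1 had been deleted. The 10 genes (Axin1, Apc, Gsk3a, Gsk3b, Ctnnb1, Csnk1a1, Btrc, Fbxw11, Tnks and Tnks2) were taken by their annotated symbols from the 23279 genes with a symbol on the arrays. All 10 were found, each with 1 probe set, and no filter on low values was applied to them.

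The complex keeps beta-catenin low when no Wnt signal is present. Axin1 and Apc are the scaffolds that hold beta-catenin beside its kinases; the kinases mark it, the F-box proteins recognise the marked form, and the proteasome destroys it. The tankyrases act on the complex itself by marking axin for destruction. In liver, beta-catenin activity is known for setting the gene programme of the hepatocytes around the central vein, among whose markers are glutamine synthetase and Axin2.

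The mice were males of 16 months. The deleted animals came from Axin1 fl/fl mice crossed with mice carrying Alfp-Cre, a Cre recombinase expressed in hepatocytes from embryonic life, and they develop liver tumours with age. The control group was liver of 3 mice without the deletion (mice 10, 11 and 12). The adjacent group was non-tumoral liver beside tumours in 5 deleted mice (mice 121, 123, 124, 1931 and 81), and the tumour group was 8 tumours of 6 deleted mice (mice 121, 123, 124, 81, 90 and 93). Mouse 121 gave 3 tumours, called here the unnumbered, the second and the third tumour, and the mean of the 3 was used wherever mice were compared. The control titles do not say which alleles those mice carried. No group holds livers of deleted mice without tumours.

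RNA of whole tissue was measured on 1 array per sample, in log2 units. Precision is limited by the small number of arrays. Array medians lay between 4.37 and 4.50. The mean of 7 hepatocyte markers was between 11.18 and 11.72 on all 16 arrays. Control 10 stood apart in its mean of 8 neutrophil markers (6.39, against 3.38 and 3.56 in the other controls) and of 8 Kupffer cell and macrophage markers (8.87, against 6.37 and 5.56). The third tumour of mouse 121 correlated across genes at 0.990 with the adjacent liver of the same mouse, the highest value of any pair of arrays. In tissue of this kind fewer cells of a type and less RNA per cell cannot be told apart.

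Axin1, the deleted scaffold, was the member whose groups were set apart. Its log2 values were 5.07, 5.24 and 5.48 in controls 10, 11 and 12. In adjacent liver of mice 121, 123, 124, 1931 and 81 they were 4.24, 3.90, 4.38, 4.39 and 4.11. In tumours of mice 123, 124, 81, 90 and 93 they were 4.58, 3.95, 4.65, 4.81 and 4.35, and the unnumbered, the second and the third tumour of mouse 121 had 4.36, 4.07 and 4.41. Each of the 13 arrays of deleted mice lay below each of the 3 controls, and tumour 90 was the highest of them. Adjacent liver and tumours overlapped over most of their range. Which exons the probe set reads is not known here, so these values are not a measure of how complete the deletion was.

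Adjacent liver differed from control in Axin1 by -1.06 on the log2 scale (SE 0.18, 95% interval -1.45 to -0.66), and tumours by -0.83 (SE 0.18, interval -1.21 to -0.44). All 5 adjacent values lay below 4.43, the median of all values on the arrays, where the probe set is dim and RMA compresses differences, so no percentage of the control level is given. Neither passed limma's threshold over all genes (adjusted p = 0.255 and adjusted p = 0.102), although Axin1 ranked 4 by unadjusted p among the 23279 genes in the first comparison and 81 in the second. The two-sided exact permutation p was 0.0179 for adjacent liver and 0.0119 for tumours, each the smallest that its group sizes allow. Leaving out tumour 90, the tumour highest in Axin1, took the tumour value to -0.90 and the limma adjusted p to 0.0480. Both comparisons use the same 3 controls. Tumours and adjacent liver differed by 0.23 (interval -0.09 to 0.56, exact p = 0.186), and a difference of up to 0.56 between them lies within the interval.

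Among all genes, 0% passed an adjusted p under 0.05 between adjacent and control liver (0 genes, with 1059 or 4.55% at an unadjusted p under 0.05). Between tumour and adjacent liver 0.155% passed (15.3% unadjusted), and between tumour and control 0.0258% (12.5% unadjusted). None of the 10 members passed the adjusted threshold in any of the 3 comparisons by limma, and Axin1 alone was under an unadjusted 0.05, in both comparisons with controls. Adjacent liver lay entirely below control for 2.04% of all genes and entirely above for 2.18%. Tumours lay entirely below control for 3.08% and above for 2.11%. Against adjacent liver the shares were 1.11% below and 1.12% above. Axin1 was the 1 member entirely below control in adjacent liver and in tumours, and 0 members lay entirely above or below adjacent liver in tumours. Of 30 exact tests of the members, 4 gave a p under 0.05 before any adjustment: those of Axin1 against controls and a pair for Gsk3b. The exact test was not run on all genes, so this count has no share over all genes to stand beside.

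**Figure D1:**
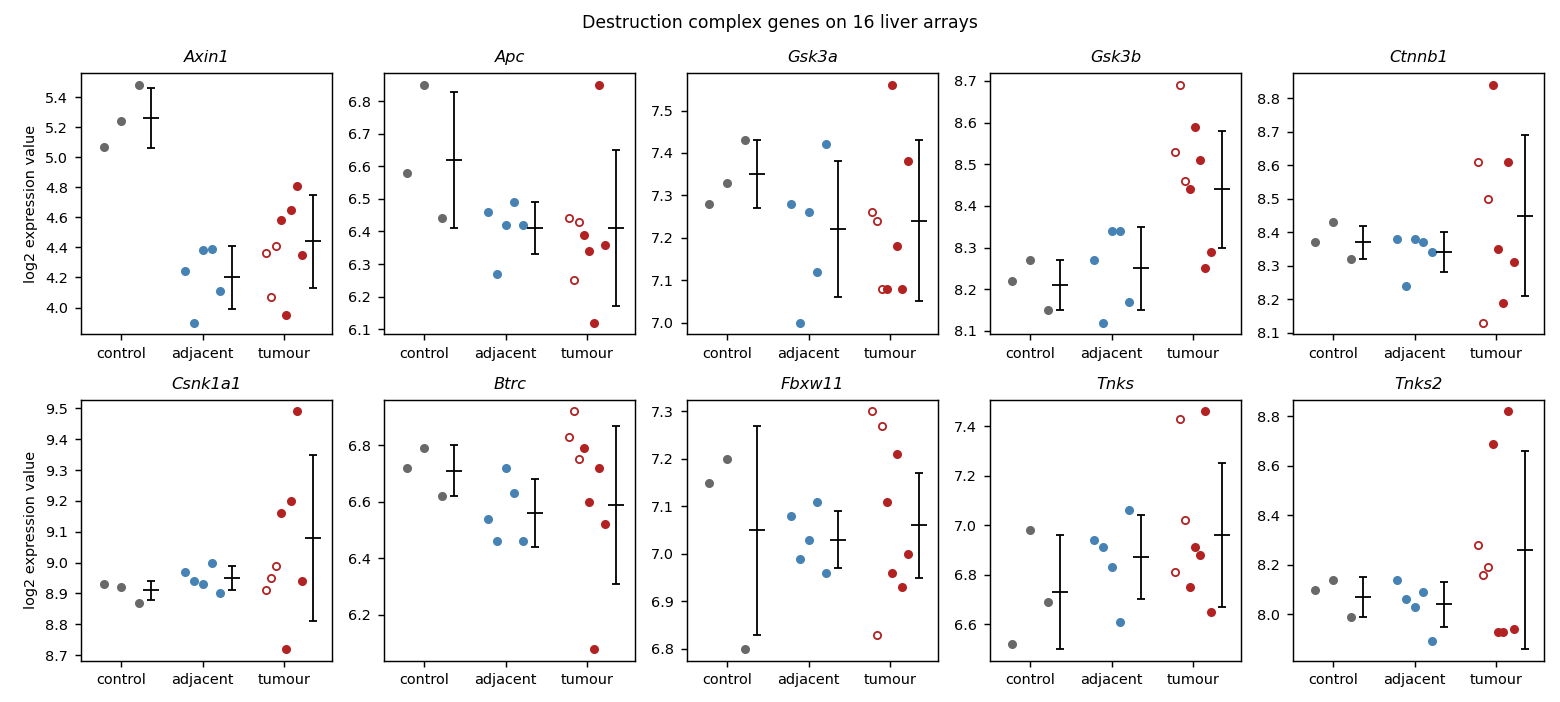
Log2 expression value (vertical axis, scaled separately in each panel) of the 10 genes on each array of control liver, adjacent liver and tumour. Points are arrays, open red circles the 3 tumours of mouse 121, and black bars the mean ± SD over 3, 5 and 6 mice; Axin1 is below every control on all 13 arrays of deleted mice, and the other 9 genes overlap between groups.

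Apc, the large scaffold that binds beta-catenin with axin, was at 6.58, 6.85 and 6.44 in the controls. Adjacent livers were at 6.46, 6.27, 6.42, 6.49 and 6.42 in the same order of mice as above. Tumour arrays ran from 6.12 in tumour 81 to 6.85 in tumour 90. Of the adjacent livers 3 lay below the lowest control and the other 2 within the control range, and control 11 was the highest of the non-tumour arrays. Against control the difference was -0.21 in adjacent liver (interval -0.53 to 0.11, exact p = 0.0536) and -0.22 in tumours (interval -0.53 to 0.10). Without control 11 these were -0.097 and -0.104. Tumour and adjacent means were the same to within 0.01, with an interval of -0.28 to 0.26.

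Of the kinases, Gsk3b, which phosphorylates beta-catenin for recognition by the ligase, was the member above the non-tumour range in the most tumours. Controls were at 8.22, 8.27 and 8.15, and adjacent livers of mice 121, 123, 124, 1931 and 81 at 8.27, 8.12, 8.34, 8.34 and 8.17. Tumours of mice 123, 124, 81, 90 and 93 were at 8.44, 8.59, 8.51, 8.25 and 8.29, and the 3 tumours of mouse 121 at 8.53, 8.69 and 8.46. All but tumours 90 and 93 lay above the highest non-tumour array, 8.34. Being above all 8 non-tumour arrays in at least 6 of the 8 tumour arrays was found for 3.13% of genes, a measure chosen after these values were seen.

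The mean difference in Gsk3b between tumour and adjacent liver was 0.19 (SE 0.10, interval -0.02 to 0.40), with 6 of 6 tumour mice above the adjacent mean. Tumour 90, at 8.25, equalled that mean of 8.25 at the precision printed, and tumour 93 was at 8.29. The difference did not pass (limma adjusted p = 0.370, two-sided exact p = 0.0368, unadjusted). Against control it was 0.23 (interval -0.02 to 0.47, exact p = 0.0476). Within the 4 mice that gave both tissues, the tumour was above its own adjacent liver by 0.29, 0.33, 0.25 and 0.34 in mice 121, 123, 124 and 81, a mean of 0.30 ± 0.04 (SD, n = 4). The two-sided exact sign-flip p of 0.125 is the smallest that 4 pairs allow. Tumours 90 and 93, which have no adjacent liver of the same number, were the ones inside the non-tumour range. Tumour 93 and adjacent liver 1931 carry different numbers and were treated as different mice, but whether they share an animal is not known. Their arrays correlated at 0.988, and Gsk3b in tumour 93 minus that in adjacent liver 1931 was -0.05, so as a further pair they would not share the direction of the 4.

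Gsk3a, the close relative of Gsk3b, did not share that pattern in its values. Controls were at 7.28, 7.33 and 7.43, adjacent livers between 7.00 and 7.42 and tumour arrays between 7.08 and 7.56. Within mice the tumour differed from its adjacent liver by -0.08, 0.08, 0.30 and -0.24 in mice 121, 123, 124 and 81. Both tissues were the higher one in some mice, and the mean difference was 0.03 (interval -0.22 to 0.28). The difference between Gsk3a and Gsk3b in response was not tested.

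Csnk1a1, casein kinase 1 alpha, places the priming phosphate on beta-catenin and was the most evenly measured member outside tumours. Its 8 non-tumour arrays spanned 8.87 to 9.00, with an SD of 0.03 in controls and 0.04 in adjacent liver. Tumours 90, 81 and 123 were above that range at 9.49, 9.20 and 9.16, tumour 124 was below it at 8.72, and the other 4 tumour arrays were inside it. The mean difference between tumour and adjacent liver was 0.13 (interval -0.13 to 0.39), while the SD over tumour mice was 0.27.

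Ctnnb1, the gene of beta-catenin itself, showed the same even baseline. Controls were at 8.37, 8.43 and 8.32, and adjacent livers at 8.38, 8.24, 8.38, 8.37 and 8.34. Tumour 123 was highest at 8.84, tumour 90 and the unnumbered tumour of mouse 121 were at 8.61, and the third tumour of that mouse was at 8.50. The second tumour of mouse 121, at 8.13, and tumour 81, at 8.19, were below the lowest non-tumour array. Thus 4 tumour arrays were above and 2 below the non-tumour range, and the mean differences were 0.11 against adjacent liver (interval -0.13 to 0.36) and 0.08 against control (interval -0.21 to 0.37). These are mRNA values; the arrays do not measure the beta-catenin protein, which is what the complex regulates.

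Btrc and Fbxw11 are the related F-box proteins that recognise phosphorylated beta-catenin for the ubiquitin ligase. Btrc was between 6.62 and 6.79 in controls, between 6.46 and 6.72 in adjacent liver and between 6.08 and 6.92 in tumour arrays. Tumour 81 was the low extreme, and the unnumbered and second tumour of mouse 121 (6.83 and 6.92) were the high one. Fbxw11 was between 6.80 and 7.20 in controls, where control 12 was the low array, between 6.96 and 7.11 in adjacent liver and between 6.83 and 7.30 in tumour arrays. The mean differences between tumour and adjacent liver were 0.03 for Btrc (interval -0.25 to 0.31) and 0.02 for Fbxw11 (interval -0.19 to 0.24). In tumour 81, Btrc was below and Fbxw11 (7.21) just above the non-tumour range.

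The tankyrases Tnks and Tnks2 attach poly-ADP-ribose to axin. Tnks was between 6.52 and 6.98 in controls, between 6.61 and 7.06 in adjacent liver and between 6.65 and 7.46 in tumour arrays. Tumour 90 (7.46) and the second tumour of mouse 121 (7.43) exceeded the non-tumour range. Tnks2 was between 7.99 and 8.14 in controls and between 7.89 and 8.14 in adjacent liver, and tumours 90 and 123 stood far above at 8.82 and 8.69. The 3 tumours of mouse 121 were slightly above the range at 8.28, 8.16 and 8.19, whereas tumours 124, 81 and 93 were at 7.93, 7.93 and 7.94. The mean differences between tumour and adjacent liver were 0.09 for Tnks (interval -0.23 to 0.40) and 0.21 for Tnks2 (interval -0.14 to 0.57), neither past the threshold. Without tumour 90 the value of Tnks2 was 0.10, and without tumour 123 it was 0.126.

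The tumours differed in how many members left the range of the 8 non-tumour arrays. Among the tumours of mouse 121 the unnumbered one had 5 members outside (31.6% of all genes were outside in that array), the second 6 (32.9%) and the third 4 (22.3%). Tumour 123 had 5 (36.1%), tumour 124 had 3 (26.1%), tumour 81 had 6 (35.7%), tumour 90 had 4 (37.8%) and tumour 93 had 0 (21.2%). Tumour 81 had members on both sides, with Gsk3b, Csnk1a1 and Fbxw11 above and Apc, Ctnnb1 and Btrc below. The second tumour of mouse 121 (4 above, 2 below) and tumour 124 (2 above, 1 below) also had both. In tumour 123 the 5 members (Gsk3b, Ctnnb1, Csnk1a1, Btrc and Tnks2) and in tumour 90 the 4 members (Ctnnb1, Csnk1a1, Tnks and Tnks2) were all above. So were those of the unnumbered and the third tumour of mouse 121. Over all genes 9.6% to 17.2% lay above and 10.7% to 20.7% below, by tumour array.

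**Figure D2:**
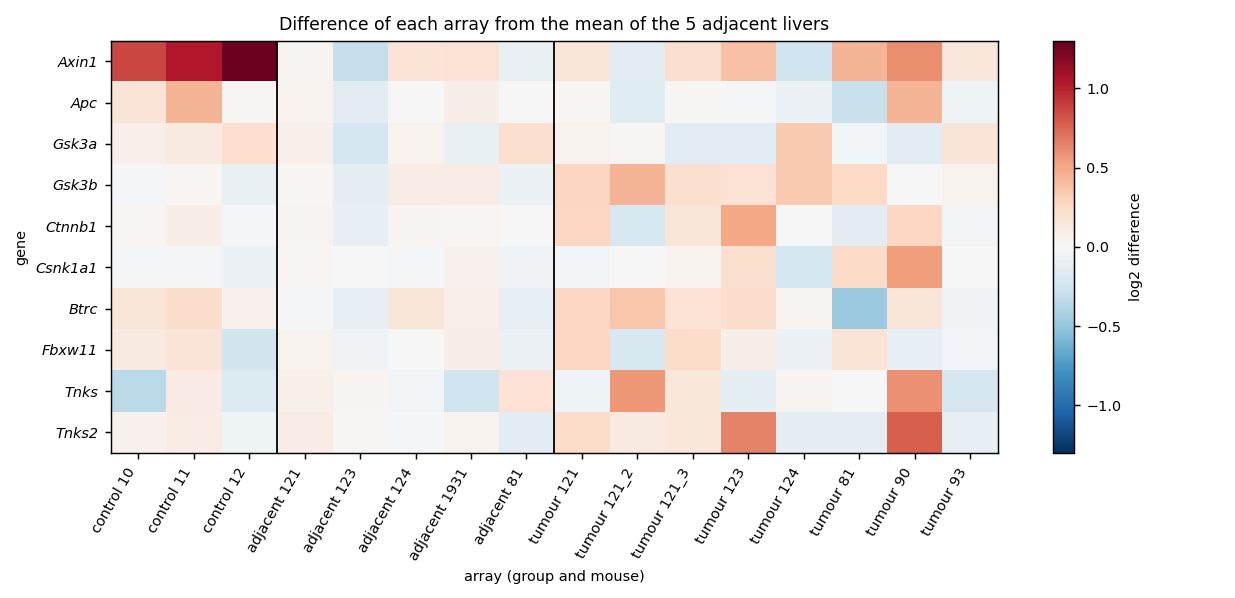
Difference of each array from the mean of the 5 adjacent livers (colour, log2 units, red above and blue below) for the 10 genes (rows) on the 16 arrays (columns, by group and mouse; 121_2 and 121_3 are the second and the third tumour of mouse 121). Axin1 is red in the 3 controls, Gsk3b is red in 6 of the 8 tumour arrays, Tnks2 is deepest in tumours 90 and 123 (8.82 and 8.69), and tumour 93 is pale throughout.

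Tumours 90, 81 and 123 were the 3 tumours highest in Csnk1a1 and also the 3 highest in Axin1, at 4.81, 4.65 and 4.58. They were the 3 tumours least like non-tumour liver over all genes, with mean correlations of 0.945, 0.947 and 0.950 with the 8 non-tumour arrays, against 0.964 to 0.982 for the other 5. Glul was lowest in the same 3, at 8.29, 7.98 and 8.65, against 9.51 to 10.79 in the other tumours. The mean of 8 stellate cell and fibroblast markers was 7.00, 6.24 and 6.47 in tumours 90, 81 and 123. It was 5.89 to 6.70 in the other 5 tumours and 5.47 to 6.52 in adjacent liver. That of 8 endothelial markers was 6.98, 6.19 and 6.99 in these 3 tumours. It was 6.45 to 7.17 in the other 5, highest in tumour 124, and 6.02 to 6.37 in adjacent liver. The mean of 7 hepatocyte markers was lowest in tumours 123, 90 and 81, at 11.18, 11.27 and 11.34. Tumour 81 was inside the adjacent range in the stellate and endothelial means and above it in the mean of 5 cholangiocyte markers, at 4.94 (3.86 to 4.13 in adjacent liver). The third tumour of mouse 121 was higher still in the cholangiocyte mean, at 5.14. The mean of 8 Kupffer cell and macrophage markers was below the adjacent range of 5.75 to 7.06 in tumours 90, 81 and 123, at 5.31, 5.06 and 4.79, and also in the unnumbered tumour of mouse 121, at 5.17. The part of other cells in the Axin1 values was not tested.

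Over all 14 mouse values, taken as deviations from their group means, Csnk1a1 was the member most like Axin1 (Pearson r = 0.78, rank 47 of 23278 genes), and Gsk3a the least (r = -0.41). The 5 genes of the arrays most like Axin1 by this measure were Cmtr2 (r = 0.90), Mir139 and Camk1 (both r = 0.89), Wfikkn1 and Igkv8-19 (both r = 0.88). Their Spearman's rho ran from 0.75 to 0.91. These coefficients rank genes over 14 values that share arrays and in 4 mice the animal, and they carry no test. None of the 5 shared the group difference of Axin1 in size: Mir139 had means of 3.96 in control, 3.51 in adjacent liver and 3.69 in tumours, and the other 4 differed by less than that.

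Every member varied more between tumour mice than between adjacent livers. The ratio of the SDs was 6.8 for Csnk1a1, 4.4 for Tnks2, 4.0 for Ctnnb1 and 2.8 for Apc, and lowest for Gsk3a (1.2) and Gsk3b (1.4). The median ratio over the 10 members was 2.10, against 1.15 over all genes, and the tumour SD was the larger one in 10 of 10 members against 57.9% of genes. The members are mostly bright, and among the 6725 genes with a mean above 6, 83.1% had the larger SD in tumours and the median ratio was 1.87. The share among members is therefore near that of genes of similar brightness, a comparison added after the values were seen.

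**Figure D3:**
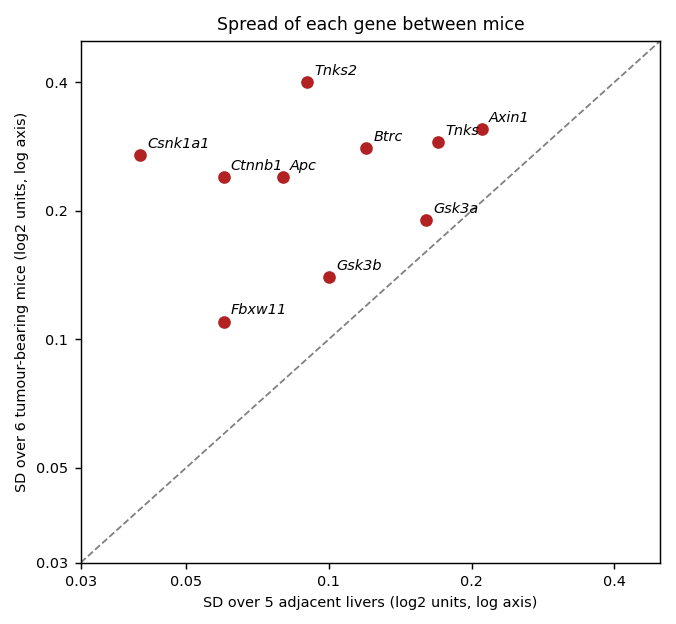
SD over 6 tumour mice (vertical) against SD over 5 adjacent livers (horizontal), both in log2 units on log axes, for the 10 genes; the dashed line marks equal spread. All 10 points lie above the line, with Csnk1a1 (0.27 against 0.04) and Tnks2 (0.40 against 0.09) farthest from it.

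The paired mice showed the same picture gene by gene. Apart from Gsk3b, no member had the same sign of difference in all 4 mice. Axin1 was above its own adjacent liver in tumours of mice 123 and 81, by 0.69 and 0.54, close to it in mouse 121 (0.04), and below it in mouse 124 (-0.43). Ctnnb1 differed by 0.60 and Tnks2 by 0.63 in mouse 123, and by at most 0.15 in size in the other 3 mice. In mouse 121 this is a mean of 3 tumours. For Ctnnb1 the unnumbered and the third (8.61 and 8.50) were above the adjacent liver (8.38) and the second (8.13) was below it. Btrc was higher in the tumours of mice 121 and 123, by 0.30 and 0.33, and lower in those of mice 124 and 81, by -0.13 and -0.38.

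**Figure D4:**
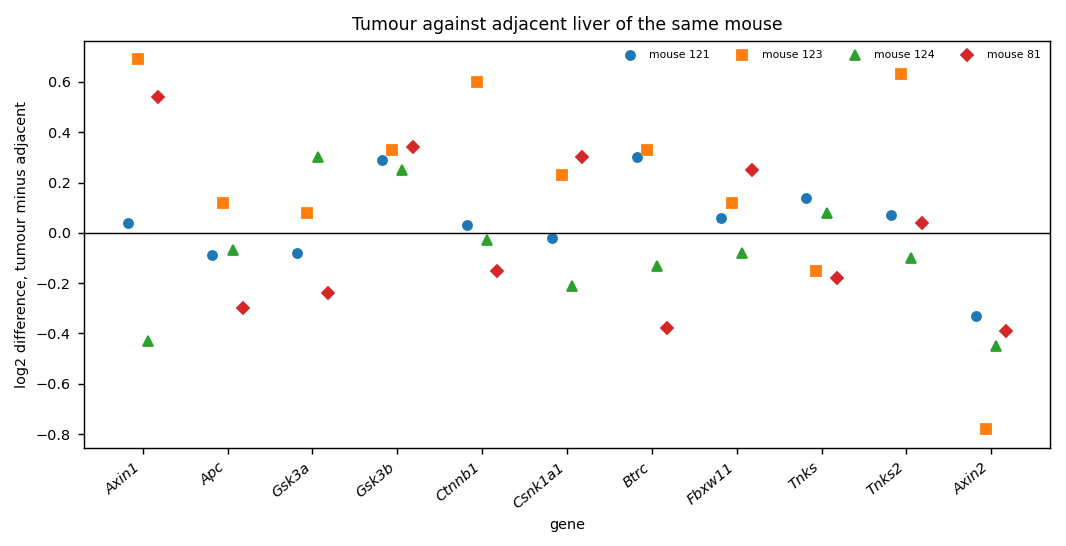
Tumour minus adjacent liver of the same mouse (vertical axis, log2 units) for the 10 genes and Axin2 in mice 121, 123, 124 and 81 (symbols; the 3 tumours of mouse 121 averaged). Gsk3b lies between 0.25 and 0.34 in all 4 mice and Axin2 between -0.78 and -0.33, whereas the other genes fall on both sides of 0.

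Other genes of the pathway, including 14 liver targets of beta-catenin, were taken from lists of 67 genes, of which 65 were measured by symbol. None of the 65 passed an adjusted p under 0.05 in any comparison by limma. At an unadjusted p under 0.05, 0 were higher and 6 lower in adjacent liver than in control, where 1.61% and 2.94% of all genes were. In tumours against adjacent liver 9 were higher and 17 lower (6.95% and 8.32% of all genes), and 10 of the 17 were among the 14 liver targets. In tumours against control 6 were higher and 10 lower (5.65% and 6.88%), and 5 of the 10 were among those targets. The median difference over the 65 genes was 0.03, -0.07 and -0.12 in these comparisons, against -0.01, -0.03 and -0.04 over all genes.

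Axin2, the second axin scaffold and itself a beta-catenin target, was lower in tumours than in adjacent liver on every array. Controls were at 5.27, 5.08 and 5.71, adjacent livers at 5.25, 5.43, 5.62, 5.48 and 5.27, and tumours from 4.65 in tumour 123 to 5.17 in tumour 124. The difference of -0.52 (SE 0.13, interval -0.80 to -0.24) did not pass (limma adjusted p = 0.0896, exact p = 0.00433), was present in 6 of 6 tumour mice, and was -0.33, -0.78, -0.45 and -0.39 within mice 121, 123, 124 and 81. Under a random replicate block for the mouse it was -0.51 and passed, with a limma adjusted p of 0.0472, and under a fixed block in the 4 pairs it was -0.49 with an adjusted p of 0.235. Between adjacent liver and control Axin2 differed by 0.05 (interval -0.28 to 0.39). Against control the tumour difference was -0.46 (SE 0.15), or -0.287 without control 12. Apc2, the relative of Apc, had a mean of 4.37 ± 0.16 (SD, n = 5) beside tumours and of 4.74 ± 0.15 (SD, n = 3) in control, a difference of -0.37 (SE 0.12, limma adjusted p = 0.999) without overlap at the precision of the file. Amer2, a membrane-associated partner of Apc, was near the lower limit of the arrays and differed by -0.16 between tumour and control, or by -0.104 without control 12 and -0.096 with quantile normalization.

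Among the other 7 casein kinase genes measured, Csnk1e was the one with the largest difference in tumours. Its mean was 5.11 ± 0.26 (SD, n = 3) in control, 5.13 ± 0.28 (SD, n = 5) beside tumours and 6.08 ± 0.66 (SD, n = 6) in tumours. The difference from adjacent liver was 0.96 (SE 0.27, limma adjusted p = 0.114), and without tumour 93 it was 1.12 and passed (adjusted p = 0.0287). With the tumours of mouse 121 averaged it was positive in 4 of 4 paired mice. The third tumour of mouse 121 alone, at 5.57, was just below its adjacent liver, at 5.61. From control the difference of Csnk1e was 0.97 (SE 0.31). Tumours 90 and 123, high in Tnks2, were also highest in Csnk1e, at 6.97 and 6.73. Csnk2a2 led these kinases in adjacent liver, at 0.25 above control (SE 0.16).

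Of the 10 subunits of the phosphatase PP2A, which opposes the kinases, 3 were higher and 1 lower in tumours than in adjacent liver at an unadjusted p under 0.05. Among all genes 6.95% were higher and 8.32% lower. The catalytic subunit gene Ppp2cb differed by 0.51 (SE 0.16, limma adjusted p = 0.143). Ppp2r5b differed by 0.54 from control (SE 0.19), and Ppp2r1b was the leading one between adjacent liver and control, at 0.23 (SE 0.18; 0.133 without control 11 and 0.346 without control 12). In the core of the ubiquitin ligase the largest values were 0.25 for Skp1 in adjacent liver (0.129 without control 12), and -0.21 and -0.06 for Cul1 in tumours against adjacent liver and control. Among genes of axin and tankyrase turnover, Usp34 differed by 0.10 in adjacent liver, and Rnf146, the ligase that reads tankyrase marks on axin, by -0.24 and -0.21 in tumours against adjacent liver and control. The last was -0.070 without control 11 and -0.136 without tumour 81. None of these groups of genes had a member past the threshold.

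The GSK3-binding proteins of the Frat family, which compete with axin for the kinase, had differing leaders. Frat1 was at 5.62 ± 0.32 (SD, n = 6) in tumours and 6.15 ± 0.18 (SD, n = 5) beside them, a difference of -0.53 (SE 0.16, limma adjusted p = 0.139), which without tumour 93 was -0.62 and passed (adjusted p = 0.0436). Frat2 differed by -0.44 (SE 0.19) between adjacent liver and control, and by -0.224 without control 12. Its means in these groups, 3.69 and 4.13, lay below 4.43, the median of all values on the arrays. Dixdc1, a relative of axin and dishevelled in its DIX domain, differed by -0.39 (SE 0.19) between tumours and control.

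Partners of beta-catenin at cell junctions were led by Cdh1. Cdh1, E-cadherin, was at 5.98, 8.38 and 7.35 in controls, at 7.22, 4.88, 6.05, 5.46 and 5.18 in adjacent livers, and between 5.85 and 9.44 in tumour arrays. With the tumours of mouse 121 averaged, tumours exceeded their own adjacent liver in 4 of 4 paired mice, by 0.61, 4.31, 2.06 and 1.46. The second tumour of mouse 121, at 5.85, was below its adjacent liver, and the other two, at 9.44 and 8.21, were above it. The mean difference was 2.37 (SE 0.55, limma adjusted p = 0.0759, or 0.0385 without tumour 93). Adjacent liver differed from control by -1.48 (SE 0.66) and tumours from control by 0.89 (SE 0.64). Without control 11 these were -0.908 and 1.459, and without control 10 the value of tumours against control was 0.259. Cdh2, N-cadherin, was entirely lower in tumours than in adjacent liver by mouse (-0.36, SE 0.11). The second tumour of mouse 121 alone, at 8.50, was above the adjacent livers of mice 121, 124 and 81 (8.34, 8.46 and 8.38). Ctnna1, alpha-catenin, was entirely higher in tumours than in control (0.63, SE 0.15, adjusted p = 0.113, or 0.0303 without tumour 93).

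Tcf7l1, a DNA-binding partner of beta-catenin that often acts as a repressor, had a pattern of groups like that of Axin1 in its levels. Controls were at 5.71, 5.76 and 5.69, adjacent livers at 4.85, 4.72, 5.12, 5.17 and 4.35, and tumour arrays between 4.58 and 5.67. All 13 arrays of deleted mice were below all 3 controls. The difference was -0.88 (SE 0.22, limma adjusted p = 0.815) in adjacent liver and -0.61 (SE 0.21, adjusted p = 0.249) in tumours. Ctnnbip1, an inhibitor of the contact between beta-catenin and its DNA-binding partners, differed by -0.38 (SE 0.15) and -0.48 (SE 0.14) and did not overlap with control by mouse, although the second tumour of mouse 121 alone, at 5.97, lay within the control range. Bcl9l, a co-activator of beta-catenin, was lower in all 6 tumour mice than in any adjacent liver (-0.43, SE 0.13, adjusted p = 0.127) or control (-0.45, SE 0.15). The third tumour of mouse 121 alone, at 6.07, was above adjacent liver 1931 (6.02) and control 10 (6.04).

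**Figure D5:**
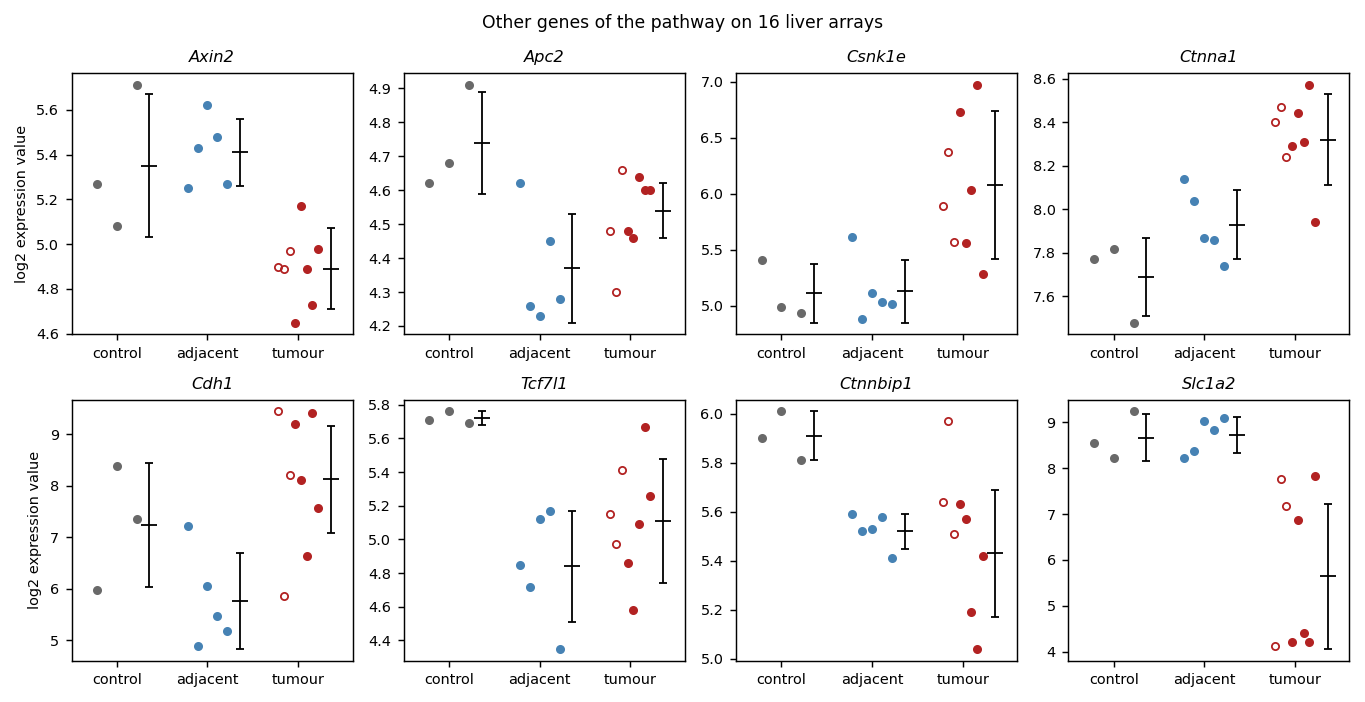
Log2 expression value (vertical axis, scaled separately in each panel) of 8 other genes of the pathway on each array of control liver, adjacent liver and tumour. Points are arrays, open red circles the 3 tumours of mouse 121, and black bars the mean ± SD over mice; Tcf7l1 is highest in the 3 controls, Axin2 and Slc1a2 are lower on all 8 tumour arrays than in adjacent liver, and Cdh1 is widely spread.

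The 14 liver targets of beta-catenin showed no common shift in adjacent liver, where their median difference from control was 0.05 and 0 had an unadjusted p under 0.05. In tumours 10 of the 14 were lower than in adjacent liver at an unadjusted p under 0.05 (8.32% of all genes), with a median of -0.59, and 0 passed the adjusted threshold by limma. In the same comparison 5 of 8 endothelial markers were higher and 1 lower at an unadjusted p under 0.05 (list median 0.66). Of 8 stellate cell and fibroblast markers 4 were higher and 2 lower (median 0.57). Of 8 Kupffer cell and macrophage markers 0 were higher and 3 lower (median -0.76). Among all genes 6.95% were higher and 8.32% lower. The part of these cell types in the target values was not tested. Slc1a2, a glutamate transporter of pericentral hepatocytes, had a difference of -3.07 (SE 0.59, adjusted p = 0.0589) from adjacent liver and of -3.03 (SE 0.69) from control (adjusted p = 0.106, or 0.0186 without tumour 93). It was between 4.12 and 4.40 in the unnumbered tumour of mouse 121 and in tumours 123, 81 and 90, and between 6.87 and 7.83 in the other 4. It passed under 6 alternatives: the random replicate block (-2.92, adjusted p = 0.0470), the filter on dim probe sets (0.0405), the unnumbered tumour of mouse 121 alone (0.0326), and without tumour 93 (0.00531), tumour 124 (0.0459) or the third tumour of mouse 121 (0.0429). It did not pass under the fixed block (-3.23, adjusted p = 0.112).

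Glul, glutamine synthetase, was at 9.28 ± 1.12 (SD, n = 6) in tumours, 11.26 ± 0.17 (SD, n = 5) beside them and 10.98 ± 0.49 (SD, n = 3) in control. Its difference between tumour and adjacent liver was -1.98 (SE 0.42, limma adjusted p = 0.0634), and -1.81 with an adjusted p of 0.0472 with the random block, -2.10 with 0.152 with the fixed block, and -2.28 with 0.00872 without tumour 93. It also passed with the filter on dim probe sets (0.0453) and with the unnumbered tumour of mouse 121 alone (0.0408). Lgr5, a receptor that strengthens Wnt signals, differed by -0.74 (SE 0.26) and Tbx3, a transcription factor, by -0.62 (SE 0.27). In adjacent liver against control these 3 genes differed by 0.28 (SE 0.51), 0.12 (SE 0.31) and -0.02 (SE 0.32). Nkd1, a feedback inhibitor, was entirely lower in tumours than in adjacent liver by mouse (-0.37, SE 0.10). Its means, 3.30 and 3.67, lay below 4.43, the median of all values on the arrays. The unnumbered tumour of mouse 121 alone, at 3.64, was above adjacent livers 121 and 81 (both 3.58). Znrf3, a ligase that removes Wnt receptors, was entirely lower in tumours than in control by mouse (-0.35, SE 0.17). The third tumour of mouse 121 alone, at 6.36, was within the control range, and tumour 90 equalled control 11 (both 6.33) at the precision printed.

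Promoters are shown for the member that was above the non-tumour range in most tumours and for Slc1a2 and Axin2. All were chosen after their values were seen. Slc1a2 and Axin2 are targets that were lower on every tumour array than in adjacent liver. So was Glul (tumours up to 10.79, adjacent livers from 11.09), whose promoter is not shown. The RefSeq windows (GRCm38.p6) end at the base before the annotated start, run 5′ to 3′ on the gene's strand, and carry in capitals each match to TCAAAG or its reverse complement CTTTGA, the core letters that TCF and LEF factors are known to bind. They lie at chr16:38088751-38089000 for Gsk3b, chr2:102706188-102706437 for Slc1a2 and chr11:108920099-108920348 for Axin2, each on the plus strand.
Gsk3b: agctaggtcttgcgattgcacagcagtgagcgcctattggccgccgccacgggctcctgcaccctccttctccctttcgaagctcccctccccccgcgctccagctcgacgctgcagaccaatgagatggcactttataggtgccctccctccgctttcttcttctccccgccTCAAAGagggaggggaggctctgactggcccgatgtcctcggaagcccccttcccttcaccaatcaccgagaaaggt
Slc1a2: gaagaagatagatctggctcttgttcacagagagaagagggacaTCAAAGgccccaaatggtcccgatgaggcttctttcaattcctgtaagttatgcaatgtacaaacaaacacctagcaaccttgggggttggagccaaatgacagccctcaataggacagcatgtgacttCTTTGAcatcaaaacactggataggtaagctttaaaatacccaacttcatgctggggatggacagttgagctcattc
Axin2: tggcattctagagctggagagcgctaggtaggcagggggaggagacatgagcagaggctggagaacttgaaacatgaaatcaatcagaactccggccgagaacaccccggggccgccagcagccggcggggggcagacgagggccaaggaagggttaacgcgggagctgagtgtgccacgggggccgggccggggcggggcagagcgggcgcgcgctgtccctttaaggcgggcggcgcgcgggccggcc
Gsk3b holds the letters 1 time, 77 bases before its start; Slc1a2 holds them 2 times, 206 and 77 bases before its start; Axin2 holds 0 matches in this window. Both strands were searched, and 13.8% of 32851 such windows hold the letters. Of the 10 members 5 had a window (Gsk3a, Gsk3b, Ctnnb1, Fbxw11 and Tnks2), and 2 of the 5 held the letters, as did 4 of 9 windows of liver targets. A match describes the sequence and is no evidence of binding in these livers.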

How the data were processed

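The deposited values are log2 expression values of 16 one-colour arrays, 1 array per sample, and the submitters' processing notes name RMA and Partek without versions or order. RMA equalises the distributions of arrays and compresses differences of dim probe sets. Per the labels' protocols, total RNA was amplified to single-stranded DNA and labelled with biotin. The sources used here do not name the chip model, the genome build or the bases read by each probe set.

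The platform annotation names 1 gene for 23281 of 24479 probe sets, several for 0 and none for 1198. Where 2 symbols had more than 1 probe set, the brighter probe set on average stood for the gene, leaving 23279 genes. Each of the 10 members had 1 probe set. Samples were grouped by their titles, which number the mice, so p-values measure the spread between mice. The 3 tumours of mouse 121 were averaged to give 1 value per mouse, and all 3 groups entered 1 limma fit (version 3.58.1, R 4.3.3, lmFit and eBayes with an intensity trend) with Benjamini-Hochberg adjustment over all 23279 genes. The threshold was an adjusted p under 0.05, and intervals are 95% intervals of that fit. Differences of group means were also tested by exact permutation, two-sided and unadjusted, for the 10 members and the other named genes in 3 comparisons. For tumour against adjacent liver the main fit and the exact permutation both ignored that 4 mice gave both tissues. The script was tested on simulated data.

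The rule for members uses symbols and no measured value, but members and lists were chosen with earlier results of these data known. The genes named are the 10 members in each comparison, of each list the members past the threshold or else the member with the largest absolute difference, the 5 genes most correlated with Axin1, and Glul, Axin2, Lgr5 and Tbx3. Pathway genes whose groups did not overlap were added after their values were seen. Titles pair tumour and adjacent liver of 4 mice (121, 123, 124 and 81). Deviations from the group means of the same mouse correlated at 0.0789 on average (0.0349 to 0.0998), against -0.0116 (-0.328 to 0.317) for different numbers. Alternatives were other normalizations, a filter on dim probe sets, other uses of the tumours of mouse 121, and the mouse as a block. As further alternatives each of the 14 mouse values was left out in turn. A mouse value is 1 mouse in 1 tissue, so a paired mouse kept its other tissue. The labels give no scan date or slide, so no batch was tested.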

Additional observations from a re-analysis of the deposited data

Results flagged for a closer look

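In groups of 4 to 10 mice, the highest or lowest value was set against the gap to its nearest neighbour by Dixon's criterion. Of 74 groups of named genes 3 passed it, of which 0 of 20 were groups of the 10 members; chance passes about 1 in 20 groups. Csnk2a2, a casein kinase 2 subunit, was at 7.94 in tumour 90, with the next tumour at 7.44. Ppp2cb, a PP2A catalytic subunit, was at 7.98 in tumour 81, where the next tumour was at 8.56. Bcl9l was at 6.02 in adjacent liver 1931, with the next adjacent liver at 6.20.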

How the results depend on the processing

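Over all alternatives the log2 difference of Axin1 stayed between -1.15 and -0.95 in adjacent liver and between -0.92 and -0.72 in tumours against control, with limma adjusted p from 0.109 to 0.745 and from 0.0480 to 0.385. With each mouse value left out the tumour value ran from -0.92 to -0.72. It passed without tumour 90 alone (-0.90).

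Under a random replicate block for the mouse 206 genes passed between tumour and adjacent liver (36 without it) and 24 between tumour and control (6 without it), and as a fixed block in the 4 pairs 0 passed. The block changed no call of a member. Counts for tumour against adjacent liver were 23 with quantile normalization, 16 with median centring, 181 with the filter on dim probe sets, 8 with the 2 groups alone, 87 with 8 separate tumours and 157 with the unnumbered tumour of mouse 121. For tumour against control they were 18 with centring, 35 with the filter, 3 without an intensity trend, 31 with 8 separate tumours, 33 with the unnumbered tumour, and 15 without the third tumour of mouse 121, an alternative chosen after seeing the data. With each mouse value left out the counts ran from 0 to 1 for adjacent against control (1 without control 10 or 11). They ran from 5 to 743 for tumour against adjacent liver and from 0 to 242 for tumour against control. Both of these were highest without tumour 93. The count for tumour against adjacent liver moved by over 1.5 times without any 1 mouse value except adjacent 121 and tumour 124. That for tumour against control did so without control 10, 11 or 12 or the tumours of mice 121, 123, 90 or 93. The causes were not tested.

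Of 730 member values under alternatives, 30 changed sign, to values between -0.120 and 0.059, and none of these was called. For adjacent liver against control these were -0.01 for Gsk3b and -0.014 for Csnk1a1 with quantile normalization, and 0.006 for Fbxw11 with centring. For tumour against adjacent liver they were 0.004 for Apc with the unnumbered tumour, -0.008 for Gsk3a, -0.012 for Btrc and -0.015 for Fbxw11 with centring, and -0.028 for Tnks with the fixed block. For tumour against control Fbxw11 was at -0.01 with quantile normalization, -0.008 with centring and -0.004 without the third tumour of mouse 121. With each mouse value left out, adjacent liver against control ran from -0.143 to 0.059 for Fbxw11, -0.075 to 0.006 for Tnks2 and -0.084 to 0.233 for Axin2. It ran from -0.006 to 0.247 for Usp34, -0.006 to 0.444 for Glul, -0.015 to 0.371 for Lgr5 and -0.181 to 0.173 for Tbx3. Tumour against adjacent liver ran from -0.095 to 0.050 for Apc, -0.034 to 0.081 for Gsk3a, -0.022 to 0.129 for Btrc, -0.007 to 0.048 for Fbxw11 and -0.014 to 0.147 for Tnks. Tumour against control ran from -0.120 to 0.082 for Fbxw11 and -0.235 to 0.045 for Cul1.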
